A study of Homo sapiens with 2 samples.

Results

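EGR1, FOSL1, JUN, NR4A3, GADD45A, GADD45B, ETS1, ETS2, MAP2K6 and MAP3K8 are inducible transcription factor, growth arrest, ETS and MAP kinase pathway genes. Their signals were compared between a miR-138 mimic and a negative control mimic (NC mimic) in H1299, a widely used line from a human non-small cell lung carcinoma. Mimics are synthetic RNAs, of which the first stands in for a mature microRNA inside the cell. The genes were chosen by their known roles from among the features that differed at least 2-fold between these 2 arrays, so the size of each difference describes them and tests nothing. All 10 had exactly 1 feature annotated to that gene alone, which made 10 of the 243 features in the deposited table. Cells for both arrays grew with 10% fetal bovine serum and received their mimic with a cationic lipid reagent when 70% confluent. They were harvested for total RNA, with 48 h of transfection given for the series. Each mimic was represented by 1 array, and the labels describe no further culture or transfection. No difference below therefore has a replicate error or a p-value, and "higher" and "lower" describe these 2 arrays.

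Values are deposited log2 signals of transcript clusters (all probes assigned to 1 gene) on an Affymetrix human transcriptome array. They carry 2 decimals, so rounding alone leaves each log2 difference uncertain by up to 0.01. The table held 104 features with a higher signal on the miR-138 array and 139 with a lower one, with no log2 difference smaller than 1.0. As a check of the labels, the MIR138-1 feature read 14.07 on the miR-138 array and 6.13 on the NC array. Of 25 markers of lung epithelial, fibroblast, endothelial and immune cells, 1 had a value, the fibroblast proteoglycan DCN, at 4.55 against 7.02. A marker with similar signals on both arrays could have no value in this table, so the lack of one does not mean undetected. The identity of the cells was therefore not checked here. Fewer cells carrying a transcript cannot be told apart from less of it per cell.

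Immediate early genes are switched on within minutes of a stimulus, without new protein synthesis. Growth factors reach them through the RAF, MEK and ERK kinases, and stress and cytokines through p38 and JNK, which act on factors already bound to their promoters, among them serum response factor with its ETS-family partners. FOS- and JUN-family proteins then pair as AP-1, and ETS1 and ETS2 are themselves activated when ERK phosphorylates them. GADD45 proteins respond to DNA damage and other stresses and can activate the kinase MAP3K4 upstream of p38. H1299 cells lack p53, a well-known inducer of GADD45A.

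The mature hsa-miR-138-5p is shown because it is the sequence usually meant by miR-138. The labels do not state which arm the mimic carried. It is encoded at both MIR138-1 (chr3:44114234-44114256, plus strand) and MIR138-2 (chr16:56858527-56858549, plus strand) of GRCh38.p14. The RefSeq sequence runs 5′ to 3′ over 23 bases, and the capitals mark the seed, bases 2 to 8, through which a microRNA chiefly recognises its targets.

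hsa-miR-138-5p: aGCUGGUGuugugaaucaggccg

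With the miR-138 mimic, 6 of the 10 genes were higher and 4 lower. Over the whole table, higher features made up 42.8% and lower ones 57.2%, and because this contrast chose the genes, nothing is read from that comparison. The higher genes were EGR1, FOSL1, JUN, GADD45A, GADD45B and ETS1, with log2 differences of 1.02 to 2.11 and a median of 1.23. The lower genes were NR4A3, ETS2, MAP2K6 and MAP3K8, at -1.05 to -2.33 with a median of -1.33. The medians over all higher and all lower features were 1.23 and -1.24. A difference of at least 2 on the log2 scale (4-fold) was reached by EGR1, GADD45A and MAP2K6, and by 7.41% of the table. The plot of both signals per gene shows the 6 genes with the miR-138 array on the right and the 4 with it on the left.

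**Figure D1:**
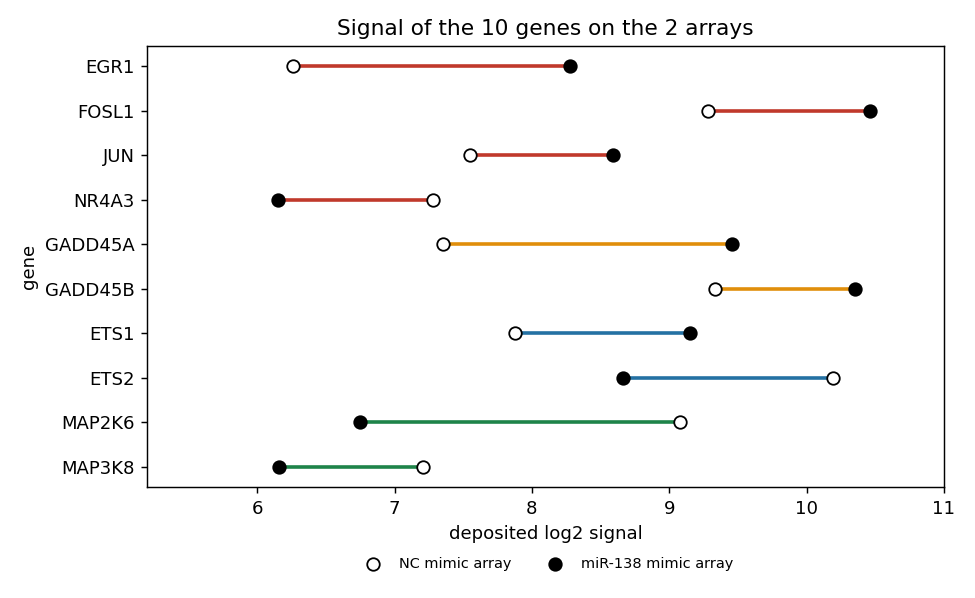
Deposited log2 signal (horizontal axis) of the 10 genes (vertical axis) on the NC mimic array (open circles) and the miR-138 mimic array (filled circles), 1 array each, with lines joining the 2 values and coloured by gene group. The widest gaps are those of MAP2K6 (9.08 to 6.75), GADD45A (7.35 to 9.46) and EGR1 (6.26 to 8.28). Signals of different genes come from different probes and are not comparable along the axis.

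EGR1, a zinc finger transcription factor and a classic immediate early gene, had a log2 signal of 8.28 on the miR-138 array and 6.26 on the NC array. The difference of 2.02 is 4.06-fold (4.03 to 4.08 from rounding alone), and it ranked 8 of the 104 higher features. FOSL1 encodes FRA1, a FOS-family protein that dimerises with JUN proteins, and its signal was 10.46 against 9.28. This made it 2.27-fold higher, a log2 difference of 1.18, which became 1.84 when the 2 columns were quantile normalized. FOSL1 has been reported elsewhere as a miR-138 target. The higher RNA signal here comes from 1 array per mimic, and whether the mimic acted on FOSL1 was not tested. JUN, the AP-1 subunit with which FRA1 pairs, read 8.59 against 7.55. Its difference of 1.04 (2.06-fold) ranked 85 of 104 and lay close to the lower limit of the table.

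NR4A3, an inducible orphan nuclear receptor, was the one gene of this group on the other side. Its log2 signal was 6.15 with the miR-138 mimic and 7.28 with the NC mimic, so the miR-138 array held 45.7% of the NC signal. The difference of -1.13 ranked 98 of the 139 lower features. EGR1 and NR4A3 thus lay apart, and the EGR1-to-NR4A3 ratio was 8.88-fold higher on the miR-138 array, a gap of 3.15 between their log2 differences. No feature of the table differed by less than 1.0 in size, so any genes on opposite sides must show a wide gap. The pairs were also chosen with earlier results known. FOSL1 and JUN, by contrast, differed from each other by 0.14, which is above the 0.02 that rounding could add to such a gap but has no replicate error behind it. After quantile normalization this gap was 0.60. Such gaps compare changes within the arrays and do not depend on a constant offset between them.

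RefSeq promoter windows were read for 7 of these genes, all but FOSL1, GADD45A and ETS1. Each window covers 250 bases before to 50 bases after an annotated transcript start on GRCh38.p14, and several starts gave 11 windows in all. The window of EGR1 is shown because it was the sole one of the 11 with a CArG box, the element bound by serum response factor. It held 2 of them, at positions -105 to -96 and -83 to -74, each read on both strands because the element is nearly symmetric. A CArG box occurs in 1.29% of all 35116 human windows in the table. The window lies at chr5:138465229-138465528 on the plus strand, and the capitals mark both boxes.

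EGR1 promoter: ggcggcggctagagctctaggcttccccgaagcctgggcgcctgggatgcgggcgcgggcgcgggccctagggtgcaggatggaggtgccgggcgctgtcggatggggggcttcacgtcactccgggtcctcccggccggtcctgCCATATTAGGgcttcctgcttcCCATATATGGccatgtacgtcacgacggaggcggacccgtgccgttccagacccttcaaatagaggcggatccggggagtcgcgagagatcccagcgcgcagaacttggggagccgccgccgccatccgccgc

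The windows of JUN and NR4A3 held no match to any of the 7 motifs searched. Those motifs were the CArG box, the AP-1 element TGANTCA, the cAMP response element TGACGTCA, the ETS motif CCGGAAGT, the EGR1 motif GCGTGGGCG, the kappa B site of NF-kB and the TATA-box core TATAAA, on both strands. The ETS, EGR1 and cAMP motifs, present in 4.14%, 0.795% and 1.85% of all windows, matched in none of the 11. A match, or the lack of one, describes the letters of these short windows and says nothing about binding. EGR1 was therefore the single inducible factor gene among the 3 with a window that had any match.

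**Figure D2:**
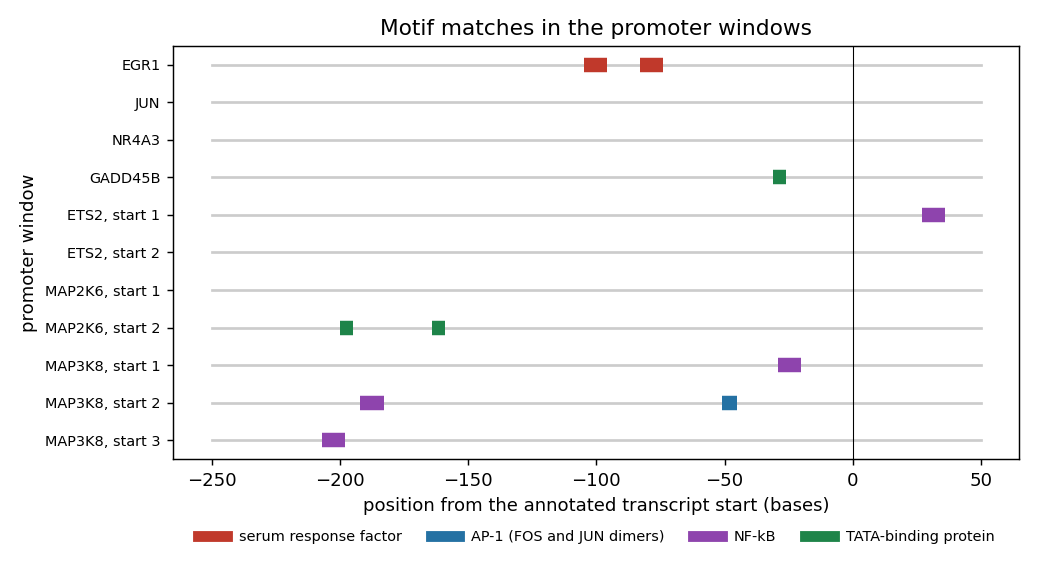
Matches to the searched motifs (coloured blocks) along the 11 promoter windows (grey lines), by position in bases from the annotated transcript start, for the 7 genes with a window. EGR1 carries 2 serum response factor elements, and the AP-1 and NF-kB matches lie mostly in the windows of MAP3K8.

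GADD45A, a small acidic protein that binds PCNA and cell cycle kinases and takes part in growth arrest, had the largest positive difference of the 10 genes. It read 9.46 on the miR-138 array and 7.35 on the NC array. The difference of 2.11 is 4.32-fold (4.29 to 4.35 from rounding) and ranked 7 of the 104 higher features. Its paralog GADD45B, which is induced by cytokines and NF-kB in several cell types, read 10.35 against 9.33. This difference of 1.02 (2.03-fold) was the smallest of the 10 and ranked 94 of 104. Both GADD45 genes were higher, but unequally, and the GADD45A-to-GADD45B ratio was 2.13-fold higher on the miR-138 array. After quantile normalization the differences were 2.58 and 1.44, and the gap between them was 1.14 in place of 1.09.

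The window of GADD45B is shown because it was the one window with a TATA core at the usual distance from the start, at -31 to -26 on the plus strand. TATAAA occurs in 11.5% of all windows on either strand and in 7.33% on the plus strand. It lies at chr19:2475877-2476176 on the plus strand, with the core in capitals.

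GADD45B promoter: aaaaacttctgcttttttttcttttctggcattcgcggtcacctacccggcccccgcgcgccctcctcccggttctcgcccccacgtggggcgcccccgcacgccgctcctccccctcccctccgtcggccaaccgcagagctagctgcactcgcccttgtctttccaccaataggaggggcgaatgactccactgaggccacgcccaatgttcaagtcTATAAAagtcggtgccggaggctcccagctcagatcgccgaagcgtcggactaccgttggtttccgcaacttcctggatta

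ETS1 and ETS2 are paralogous transcription factors that recognise the same core element and respond to ERK, and they lay on opposite sides. ETS1 read 9.15 with the miR-138 mimic and 7.88 with the NC mimic, a difference of 1.27 or 2.41-fold. ETS2 read 8.66 against 10.19, a difference of -1.53 that left 34.6% of the NC signal. The ETS1-to-ETS2 ratio was therefore 6.96-fold higher on the miR-138 array, a gap of 2.80. As for EGR1 and NR4A3, a wide gap follows from opposite sides in a table limited to 2-fold differences. Quantile normalization moved ETS2 to -0.96, under the 2-fold limit, and ETS1 to 1.64, and left a gap of 2.60. In RefSeq gene order ETS1 is flanked by FLI1 and ETS2 by ERG, both ETS-family genes, and neither of these neighbours was analysed here. The comparison of gene pairs shows the ETS genes and the EGR1 and NR4A3 pair straddling 0, while the other 3 pairs lie on one side.

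**Figure D3:**
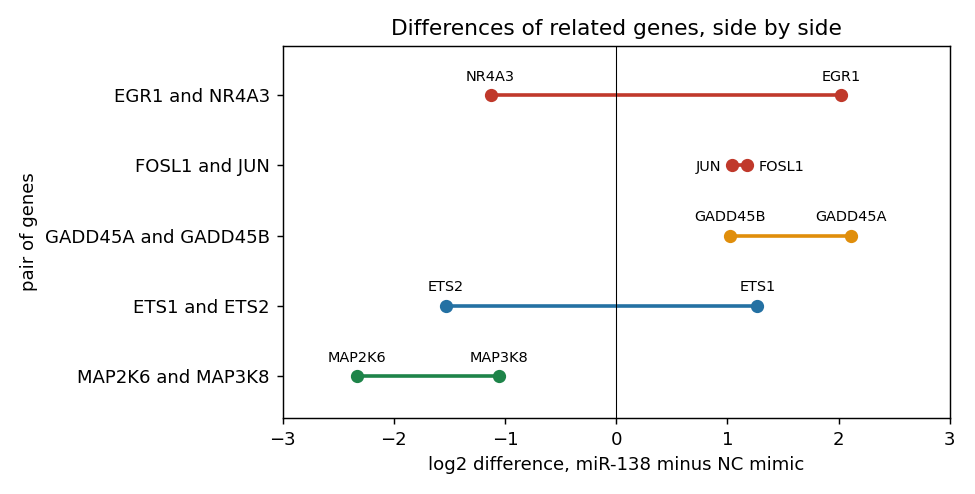
Log2 difference, miR-138 mimic minus NC mimic (horizontal axis), of the members of 5 pairs of related genes (vertical axis), each point from 1 array per mimic. The line in each row spans the gap between the 2 genes, which is 3.15 for EGR1 and NR4A3, 2.80 for ETS1 and ETS2, -1.28 for MAP2K6 less MAP3K8, 1.09 for the GADD45 genes and 0.14 for FOSL1 and JUN.

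Both kinases were lower with the miR-138 mimic. MAP2K6, also called MKK6, phosphorylates and activates p38, and it read 6.75 with the miR-138 mimic and 9.08 with the NC mimic. The difference of -2.33, the largest in size of the 10 genes, corresponds to 5.03-fold (4.99 to 5.06 from rounding) and ranked 7 of the 139 lower features. The miR-138 array thus held 19.9% of the NC signal of MAP2K6. MAP3K8, also called TPL2 or COT, activates MEK and so ERK downstream of Toll-like and tumour necrosis factor receptors. It read 6.16 against 7.21, a difference of -1.05 (2.07-fold) that ranked 122 of 139. Relative to MAP3K8, the signal of MAP2K6 was 2.43-fold lower on the miR-138 array. MAP3K8 became -0.99, just under the 2-fold limit, when each array was centred on its median over the table.

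The second of 3 MAP3K8 windows is shown because it held the sole AP-1 element among the 11 windows. TGAGTCA stood at -51 to -45, a form of TGANTCA that is found in 7.71% of all windows. A kappa B site lay at -192 to -183 on the minus strand, and the overlapping first window holds the same site at -29 to -20. The third window held another at -207 to -198. The first ETS2 window also had a kappa B match, at 27 to 36 after the start, and such sites occur in 5.91% of all windows. The second MAP2K6 window had 2 TATAAA matches on the minus strand, at -200 to -195 and -164 to -159, and the first had none. The MAP3K8 window lies at chr10:30433934-30434233 on the plus strand, with the AP-1 and kappa B matches in capitals.

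MAP3K8 promoter: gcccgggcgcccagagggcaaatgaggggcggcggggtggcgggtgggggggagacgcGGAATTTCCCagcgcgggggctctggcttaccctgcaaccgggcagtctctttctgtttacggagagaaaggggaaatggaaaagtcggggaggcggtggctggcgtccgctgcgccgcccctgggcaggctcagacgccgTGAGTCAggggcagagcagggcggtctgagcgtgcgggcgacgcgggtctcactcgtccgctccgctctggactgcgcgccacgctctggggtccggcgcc

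Several of the 10 genes lay near the edge of the table. GADD45B (1.02), JUN (1.04) and MAP3K8 (-1.05) were under 1.1 in size, as were 64 of the 243 features (26.3%). The smallest difference in the table, 1.0 in size, was shared by 5 features, and genes beyond that edge were not analysed here. By mean log2 level over both arrays, all 10 lay above the lowest 25% of the table, which ended at 6.57. MAP3K8 (6.68) and NR4A3 (6.72) were closest to it. On their lower array, however, EGR1 (6.26), NR4A3 (6.15) and MAP3K8 (6.16) read under that limit. The limit was set within the deposited table, so it does not show that a signal was clear of background. The genes came from 8 chromosomes, with JUN and GADD45A both coded to chromosome 1 and FOSL1 and ETS1 both to chromosome 11, and the coded chromosome matched RefSeq for 10 of 10. Of the 20 protein-coding genes that flank them in RefSeq order, 0 had a value here. The table holds only 243 features limited to 2-fold differences, so nothing is read from that. The deposited values hold 1 feature for each of these genes, so isoforms were not separated here. RefSeq lists 6 curated transcripts for FOSL1, 4 for ETS1 and 1 each for EGR1, JUN and GADD45B.

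**Figure D4:**
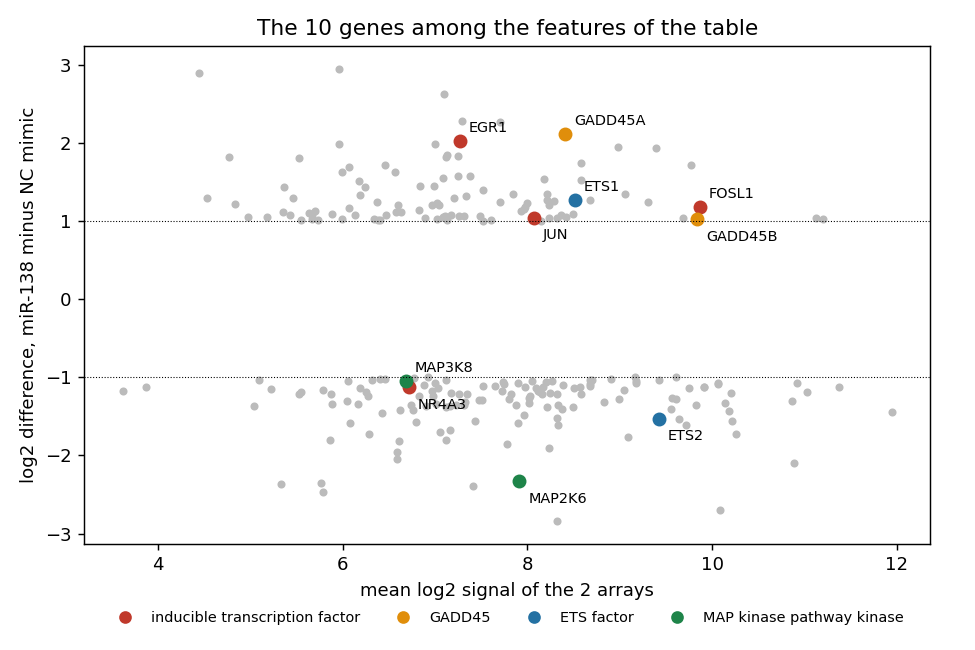
Log2 difference, miR-138 mimic minus NC mimic (vertical axis), against the mean log2 signal of both arrays (horizontal axis) for 242 features (grey), with the 10 genes coloured by group. MIR138-1, at 7.94, is left out for scale, and dotted lines mark differences of 1 and -1. The band between the lines is empty because the table holds no smaller difference.

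Genes of the surrounding pathways were taken from 8 lists of 268 symbols in all, of which 25 had a value, 13 higher and 12 lower. Apart from the 10 genes themselves there were 15, with 7 higher and 8 lower and a median of -1.04, beside -1.05 over all 243 features. On the immediate early list, 6 of 40 symbols had a value and 4 were higher, with a median of 1.04, beside 42.8% higher over all features. Of these 6, 4 were the factor genes chosen on this contrast, and the other 2, ODC1 and SGK1, had a median of -0.03. ODC1, the first enzyme of polyamine synthesis, read 11.72 against 10.69 (1.03). SGK1, a serum- and glucocorticoid-induced kinase, read 10.38 against 11.46 (-1.08). The ETS family list had 2 of 27 symbols with a value, ETS1 and ETS2 (median -0.13), and the MAP kinase cascade list 2 of 59, MAP2K6 and MAP3K8 (median -1.69). Of 22 MAP kinase phosphatases and feedback inhibitors, which dampen these cascades, 0 had a value. Only features with 2-fold differences are in the table, so nothing is read from that. The list of GADD45 genes and p53 targets had 3 of 26, with the stress-induced sestrin SESN3 lower at 6.22 against 8.02 (-1.80) beside the GADD45 pair. The median of these 3 was 1.02, and it was 0.15 for the 2 left, GADD45A and SESN3, at a log2 limit of 1.5. The table holds no difference under 2-fold, so the list medians near 0 are midpoints of opposite differences and do not mean unchanged genes.

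Of 32 listed genes known to be driven by AP-1, EGR1 or ETS factors, 5 had a value, 4 higher and 1 lower, with a median of 1.83. Over all 243 features 42.8% were higher, 57.2% were lower and the median was -1.05, and 5 genes are too few to set the list apart from the table. The cytokine IL6 read 8.29 against 6.28 (2.01). HMOX1, the heme-degrading enzyme, read 10.36 against 8.43 (1.93), and ANKRD1, a nuclear ankyrin-repeat protein, 8.16 against 6.33 (1.83). The chemokine CCL5 read 7.32 against 5.60 (1.72), and the efflux pump ABCG2 was lower at 6.86 against 8.15 (-1.29). These genes have other known regulators, and the list was drawn up with earlier results of these data known. IL6 recurs on the list of growth factors, cytokines and their receptors, where 2 of 41 symbols had a value and the other, the interleukin receptor IL7R, read 5.50 against 4.45 (1.05), for a list median of 1.53.

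NR4A3 is a known target of cAMP signalling, and of 28 listed cAMP-related genes 6 had a value, 1 higher and 5 lower, with a median of -1.15. Over the whole table the median was -1.05 and 57.2% of features were lower. Small differences are absent from the table, so a mostly lower list with differences near its edge must have a median close to -1.05. Nothing is therefore read from how close the medians are, and 6 genes are too few to set the list apart from the table. The list was also drawn up with earlier results of these data known. The cAMP-degrading phosphodiesterases PDE8B (-1.38), PDE3A (-1.33), PDE4D (-1.16) and PDE7B (-1.14) were lower. SIK1, a cAMP-induced kinase, read 8.18 against 9.22 (-1.04), and the secreted glycoprotein STC2 was the higher one, at 8.90 against 7.82 (1.08). The plot of listed genes sets these values beside those of the 10 genes.

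**Figure D5:**
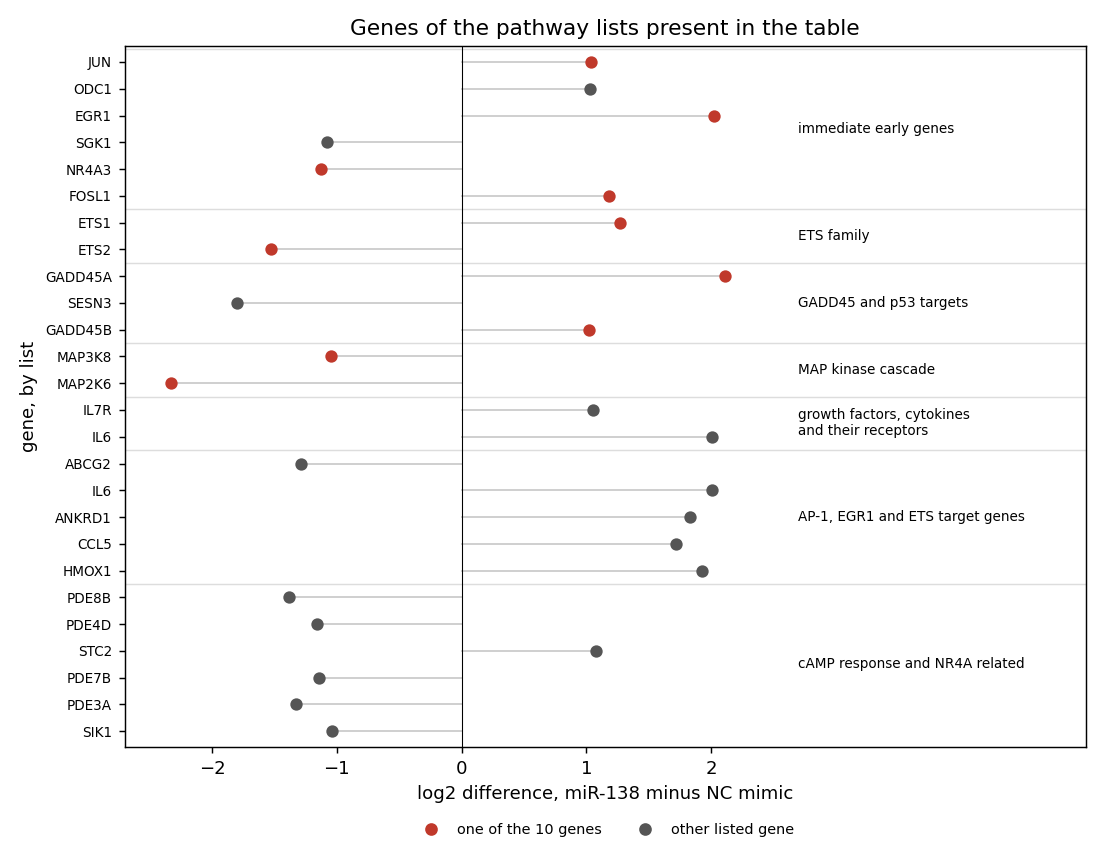
Log2 difference, miR-138 mimic minus NC mimic (horizontal axis), of every listed gene with a value, grouped by list, with the 10 genes in red and other listed genes in grey. IL6 appears on 2 lists. On the target list 4 of 5 points lie right of 0, and on the cAMP list 5 of 6 lie left of it, beside 42.8% of all features to the right and 57.2% to the left.

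For the 4 genes with the largest differences, the 2 features with the nearest readings were found by the distance between pairs of log2 signals over the 2 arrays. Signals of different probes are not comparable as expression levels, so nearness describes the deposited readings and nothing about how much of each transcript was present. IL6 lay 0.02 from EGR1 and ANKRD1 0.14. HDAC9 (9.45 against 7.71) and UBE2L6 (9.35 against 7.82) were nearest to GADD45A, at 0.36 and 0.48. AQP3 (6.85 against 8.70) and NPR3 (7.10 against 8.69) were nearest to MAP2K6, at 0.39 and 0.52. MFSD12 (8.86 against 10.26) and IMPA2 (8.93 against 10.20) were nearest to ETS2, at 0.21 and 0.27.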

How the data were processed

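Total RNA was profiled on 1 array per mimic. The authors deposited log2 signals with 2 decimals, which came from Affymetrix Expression Console, per the submitters' processing notes. How probes were summarised, arrays normalized and features filtered, and the software version, are not given in the sources. The log2 scale and the 2-fold limit were read from the values. Platform annotation named 1 gene for 220 of 243 features, several for 10 and none for 13, and only features with 1 gene were named. Differences are miR-138 minus NC. No test was possible with 1 array per group. Arithmetic was checked on simulated data. The genes, lists, motifs and pairs were chosen with earlier results of these data known. All 10 genes, every listed gene with a value and the 2 nearest features to the 4 largest differences were named. Alternatives were centring, a filter on dim features, a log2 limit of 1.5, features with 1 gene, and quantile normalization, the last added after seeing the data. A planned comparison of protein sequences was not run because none were used here. Promoter and microRNA sequences are RefSeq's (GRCh38.p14). Transcript 3′ ends were not searched for seed matches. Python 3.11.15, NumPy 2.4.6, pandas 2.3.3 and Matplotlib 3.10.9 were used.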

Additional observations from a re-analysis of the deposited data

How the results depend on the processing

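All 10 genes kept their direction under each setting that gave a difference, but of these only quantile normalization could have turned one. Centring each array on its median added 0.06 to each difference. It gave EGR1 2.08, FOSL1 1.24, JUN 1.1, NR4A3 -1.07, GADD45A 2.17, GADD45B 1.08, ETS1 1.33, ETS2 -1.47, MAP2K6 -2.27 and MAP3K8 -0.99, so 6 genes were higher and 3 lower by at least 1. Because no difference was under 1.0 in size, this shift could turn no direction. Quantile normalization, chosen after seeing the data and applied to a table limited to 2-fold differences, gave EGR1 2.23, FOSL1 1.84, JUN 1.24, NR4A3 -1.08, GADD45A 2.58, GADD45B 1.44, ETS1 1.64, ETS2 -0.96, MAP2K6 -2.15 and MAP3K8 -1.01. It left 5 listed genes outside the 10 lower by at least 1, in place of 8, and 81 features lower in the table, in place of 139, with 88 higher. The median of the ETS family list changed sign under it, from -0.13 to 0.34, with 1 gene on each side. The causes of these shifts were not tested. A log2 limit of 1.5 kept 2 higher and 2 lower of the 10 genes, and 4 higher and 1 lower of the other listed genes, against 30 higher and 30 lower features in the table. The median of the GADD45 and p53 target list was 0.15 at that limit, from GADD45A and SESN3 alone. Leaving out the lowest 25% of levels kept 69 higher and 113 lower features in the table. This filter, like leaving out features with several genes, only removes features, so it could change no value of the 10. Of the other listed genes, the filter on levels kept 5 higher and 7 lower, in place of 7 and 8. It moved the median of the growth factor and cytokine list from 1.53 to 2.01. Searching the plus strand alone removed the MAP2K6 matches and the kappa B match of the first 2 MAP3K8 windows, which left 5 matches of a gene with a motif in place of 6. No paired analysis was possible because each mimic had a single array, so none could be left out either. The number of arrays limits the precision.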
